A study of Mus musculus with 16 samples.

Results

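The 6 genes described here encode the connexins that were chosen because their known main sites lie outside oligodendrocytes: Gja1, Gjb6, Gjb2, Gjd2, Gja4 and Gjc1. They were taken by symbol, and all 6 were present among the 19014 genes measured at P14 and among the 19748 measured at P1, and all 6 passed each filter on low values. The study sequenced poly(A) RNA of the dissected medial prefrontal cortex of male mice of the outbred ICR strain. Dams of the PNS (prenatal stress) groups were exposed to stress while pregnant, and dams of the Ctrl groups were not. Tissue of the offspring was taken at 2 weeks of age (P14) or on postnatal day 1 (P1), giving the groups PNS P14, Ctrl P14, PNS P1 and Ctrl P1 with 4 libraries each, 16 in all. The labels give no genetic alteration or drug for any group, and do not say whether libraries came from separate litters or animals, so p-values measure the spread between these libraries, which may be technical.

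Connexins are membrane proteins that assemble into hexameric half-channels, and half-channels of neighbouring cells dock to form gap junctions through which ions and small molecules pass. Cx43, encoded by Gja1, is the main connexin of astrocytes and is also made by meningeal and other cells, and Cx30 (Gjb6) joins it as astrocytes mature. Cx26 (Gjb2) is best known in the brain from the leptomeninges, and has also been described in astrocytes. Cx36 (Gjd2) forms the electrical synapses between neurons, many of them inhibitory interneurons, Cx37 (Gja4) lies in arterial endothelium, and Cx45 (Gjc1) is known from developing neurons and from the smooth muscle and mural cells of vessels.

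The genes are spread over 5 mouse chromosomes of build GRCm38. Gjb2 (chr14:57098600-57104702) and Gjb6 (chr14:57123303-57133611) lie side by side on the minus strand, 18.6 kb apart. Gja1 lies at chr10:56377330-56402513 on the plus strand. The others lie on the minus strand, Gjd2 at chr2:114009601-114013619, Gja4 at chr4:127311421-127314039 and Gjc1 at chr11:102799579-102819700. Gjd2 overlaps the noncoding A530058N18Rik on the opposite strand at its start, and since the strand of the libraries is not given in the sources used here, its reads may include some of that transcript. RefSeq start-site windows of 300 bases (GRCm38.p6, gene strand) were matched for 5 of the 6 genes, all but Gjc1. The windows of Gja1 (chr10:56377050-56377349, plus strand), Gjb6 (chr14:57133562-57133861, minus strand) and Gjb2 (chr14:57104653-57104952, minus strand) are shown because these genes varied together at P1. Capitals mark matches on either strand to TGANTCA, the AP-1 consensus, or to GGGCGG, the GC box, and the matches do not overlap.
Gja1: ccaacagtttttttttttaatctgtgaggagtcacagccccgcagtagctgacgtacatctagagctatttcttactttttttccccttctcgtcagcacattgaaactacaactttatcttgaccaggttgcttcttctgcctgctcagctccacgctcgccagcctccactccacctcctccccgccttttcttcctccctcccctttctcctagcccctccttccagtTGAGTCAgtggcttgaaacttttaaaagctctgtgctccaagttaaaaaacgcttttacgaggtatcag
Gjb6: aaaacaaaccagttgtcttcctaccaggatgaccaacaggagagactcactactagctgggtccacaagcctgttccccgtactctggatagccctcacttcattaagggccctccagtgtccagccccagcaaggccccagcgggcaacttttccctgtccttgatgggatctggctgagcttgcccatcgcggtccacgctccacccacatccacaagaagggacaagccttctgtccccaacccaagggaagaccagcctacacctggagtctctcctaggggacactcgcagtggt
Gjb2: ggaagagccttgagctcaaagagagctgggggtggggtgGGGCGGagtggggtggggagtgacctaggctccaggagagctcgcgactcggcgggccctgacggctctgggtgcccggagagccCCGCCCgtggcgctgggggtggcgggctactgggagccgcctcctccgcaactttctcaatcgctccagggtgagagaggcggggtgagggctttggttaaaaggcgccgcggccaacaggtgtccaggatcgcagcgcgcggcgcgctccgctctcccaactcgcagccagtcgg
The neighbours on chromosome 14 have start regions of different composition. Gjb2 had 27 CG dinucleotides and 70.0% G and C, whereas Gjb6 had 6 and 57.3%, and the median over 32851 windows was 7. Gja1 had 8 CG dinucleotides, Gja4 16 and Gjd2 41, more than 96.5% of all windows. The Gja1 window held 1 TGANTCA, as TGAGTCA starting 19 bases before the start site, and 7.81% of windows hold this motif. GGGCGG stood in 35.7% of windows, with 2 matches in Gjb2, 1 each in Gjd2 and Gja4, and 0 in Gja1 and Gjb6. TATAAA, the TATA box consensus, was found in 13.6% of windows and in 0 of the 5.

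The P14 libraries held 15.1 to 73.0 M reads and the P1 libraries 34.0 to 58.8 M, and the connexins were measured from 89 reads (Gja4 in Ctrl P14 replicate 3) to 10984 reads (Gja1 in Ctrl P14 replicate 1). Replicates of a group had a chi-square per gene of 6.07 to 59.5, so no pair agreed within sampling noise. The tissue label was checked against the 8 detected of 9 genes of cortical projection neurons, whose normalized counts summed to 130674 to 181654 in PNS P14, 126749 to 138034 in Ctrl P14, 122757 to 143565 in PNS P1 and 125623 to 170665 in Ctrl P1. Some P1 libraries stood apart in genes of adjacent tissue. The sum of 6 olfactory bulb markers was 4755, 10514, 7221 and 262 in PNS P1 replicates 1 to 4, against 326 to 1402 in Ctrl P1. The sum of 13 meningeal fibroblast genes was 46164, 62625, 69007 and 39952 in the same PNS libraries, against 32663 to 40907 in Ctrl P1, and 0 genes of either list were at 0.

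Levels were set side by side as RPKM, reads per kilobase of the longest protein-coding transcript and per M reads, with library sizes scaled across all 16 libraries by TMM. By this length Gja1 was the most abundant of the 6 in each group. It averaged 49.7 ± 2.0 in PNS P14 and 53.9 ± 2.5 in Ctrl P14, and 38.1 ± 12.2 in PNS P1 and 23.0 ± 3.3 in Ctrl P1 (RPKM, SD, n = 4 each). Gja1 and the next gene did not overlap in any of the 4 groups. The order below Gja1 differed between the ages. In PNS P14 it was Gjb6 (17.6 ± 2.5), Gjd2 (6.58 ± 0.74), Gjb2 (5.22 ± 1.49), Gja4 (4.43 ± 0.59) and Gjc1 (2.92 ± 0.31), on the same scale. Ctrl P14 had the same order, with Gjb6 (18.4 ± 0.6), Gjd2 (6.31 ± 0.61), Gjb2 (5.60 ± 0.73), Gja4 (4.18 ± 0.94) and Gjc1 (3.24 ± 0.61). In both, Gjb6 stood clear of all those under it, Gjd2 overlapped Gjb2, and Gjb2 overlapped Gja4, while Gja4 and Gjc1 overlapped in Ctrl P14 and not in PNS P14.

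At P1 the 5 genes under Gja1 lay closer together in PNS. They ran from Gjc1 (9.07 ± 1.01), Gja4 (8.90 ± 0.69), Gjb6 (8.65 ± 3.09) and Gjb2 (7.56 ± 2.79) to Gjd2 (6.55 ± 0.64), and every pair of neighbours overlapped. In Ctrl P1 the order was Gjc1 (9.91 ± 0.62), Gja4 (7.77 ± 0.80), Gjd2 (6.09 ± 0.67), Gjb6 (3.95 ± 1.03) and Gjb2 (3.78 ± 0.87). There, Gjc1 stood clear of Gja4 and Gjd2 of Gjb6, while Gja4 and Gjd2, and Gjb6 and Gjb2, overlapped. Gja1 made up 57.5% ± 3.1 of the summed level of the 6 genes in PNS P14 and 58.8% ± 1.0 in Ctrl P14, against 47.6% ± 4.9 in PNS P1 and 42.1% ± 2.8 in Ctrl P1 (SD, n = 4 each). Gjc1 made up 3.38% ± 0.25 in PNS P14 and 3.54% ± 0.70 in Ctrl P14, against 12.2% ± 4.2 in PNS P1 and 18.2% ± 1.0 in Ctrl P1.

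These orders and shares depend on the length taken for each gene. Over the union of all annotated exons, an alternative chosen after the values were seen, the length is 10257 bases against 3182 for Gja1, 5003 against 2314 for Gjc1 and 2674 against 2105 for Gjb6, and the same for the other 3 genes. Gja1 then averaged 15.4 ± 0.6 RPKM in PNS P14, where it overlapped Gjb6 (13.9 ± 2.0), and 16.7 ± 0.8 in Ctrl P14, where it stood clear of Gjb6 (14.5 ± 0.5). In PNS P1 Gja1 (11.8 ± 3.8) overlapped Gja4 (8.90 ± 0.69). In Ctrl P1 Gja4 (6.69 to 8.43) had the higher mean and Gja1 (6.18 to 8.50) overlapped it. Gjc1, second at P1 by transcript length, was then the lowest of the 6 in PNS P1 (4.20 ± 0.47), while in Ctrl P1 it ranged from 4.18 to 4.83, below every value of Gja4 and of Gjd2 (5.65 to 7.08). The share of Gja1 was 33.0% ± 2.9 in PNS P14 and 34.3% ± 0.8 in Ctrl P14, and 25.4% ± 3.4 in PNS P1 and 21.9% ± 2.2 in Ctrl P1.

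**Figure D1:**
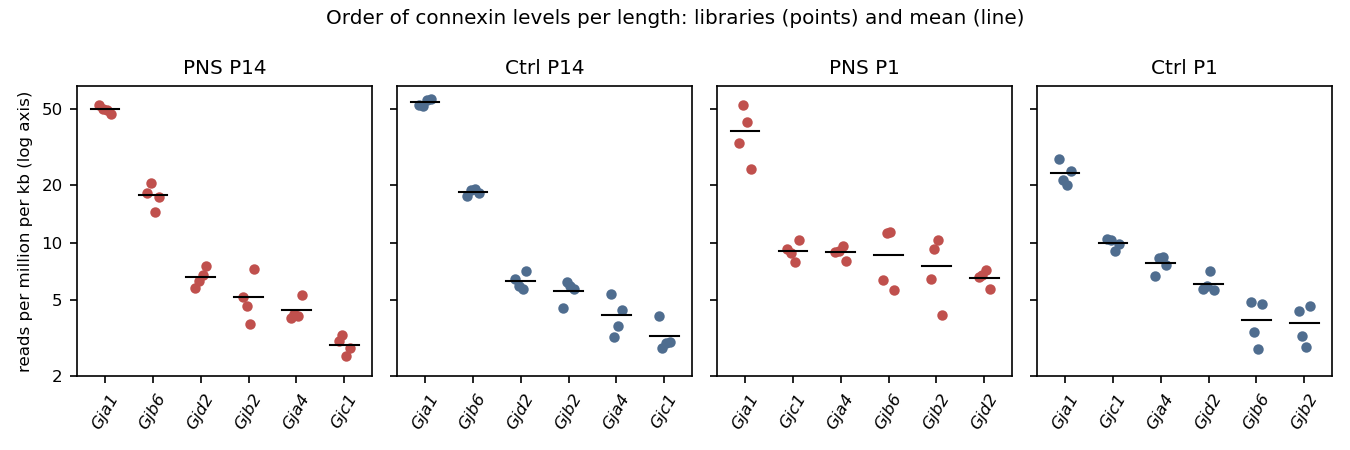
Level per transcript length of the 6 connexins in each group, in RPKM (reads per kilobase and per M reads) on a log axis, with genes sorted by their mean, points for the 4 libraries of a group and a line at their mean. By this length Gja1 leads in all 4 groups, and Gjb6 stands 2nd at P14 and 4th or 5th at P1.

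The comparison of P14 with P1 asked how the connexins changed over the first 2 weeks after birth. Gja1 and Gjb6 rose, Gja4 and Gjc1 fell, Gjd2 did not pass the test, and this held in both PNS and Ctrl. In PNS the rise of Gja1 was near the threshold (edgeR adjusted p = 0.0436), and its call was lost in 8 of 15 other settings. Since the tables of the ages were normalized separately, this comparison used reads recovered from them, tested with edgeR's quasi-likelihood model over all 16 libraries. It called 4 of the 6 genes in PNS, 2 higher and 2 lower, where 72.3% of all tested genes were called (34.3% higher and 38.0% lower). In Ctrl it called the same 4 of 6, where 71.2% of genes were called (34.8% higher and 36.4% lower), so these counts are near the background. With total reads in place of TMM, the share of called genes that were higher at P14 was 32.2% in PNS and 36.7% in Ctrl, against 47.4% and 48.9% with TMM. In bulk tissue, fewer cells of a type and less RNA per cell cannot be told apart.

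Gjb6 had the largest rise of the 6. It read 38.3, 43.1, 30.5 and 36.6 CPM (TMM-scaled reads per M reads) in PNS P14 and 13.4, 23.7, 23.9 and 11.9 in PNS P1, and the groups did not overlap. In Ctrl it read 37.0, 39.4, 40.1 and 38.3 at P14 and 10.3, 7.16, 5.86 and 10.01 at P1. Every P14 library was above every P1 library of its group, and the difference on the log2 scale was 1.03 ± 0.21 in PNS (SE, edgeR adjusted p = 0.000301) and 2.21 ± 0.22 in Ctrl (adjusted p = 8.46e-08). Gja1 averaged 158 ± 6 CPM in PNS P14 and 121 ± 39 in PNS P1, which overlapped, with a log2 difference of 0.38 ± 0.16 (edgeR adjusted p = 0.0436). In Ctrl it averaged 171 ± 8 at P14 and 73.3 ± 10.5 at P1, did not overlap, and differed by 1.23 ± 0.16 (adjusted p = 3.65e-06). The PNS call of Gja1 was lost without any single P14 library (adjusted p of 0.0507 to 0.0856) and without PNS P1 replicate 1 or 4 (0.117 and 0.132), and it was lost in the 8 PNS libraries alone (0.0802). Its difference was 0.57 without PNS P1 replicate 2 and 0.22 without replicate 4. Without both PNS P1 replicates 2 and 3, Gja1 stood at 0.79 and Gjb6 at 1.55 in PNS (edgeR adjusted p = 4.92e-05 and 2.57e-06).

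The connexins of vessels and developing neurons fell by similar amounts in both conditions. Gjc1 read 7.08, 7.58, 5.91 and 6.48 CPM in PNS P14, against 21.4, 20.4, 18.3 and 23.9 in PNS P1. In Ctrl it read 9.56, 6.50, 6.90 and 6.99 at P14, against 24.1, 23.8, 20.9 and 22.8 at P1. Every P14 library was lower than every P1 library, and Gjc1 fell by 1.64 ± 0.12 in PNS and by 1.60 ± 0.12 in Ctrl (log2, SE, edgeR adjusted p = 2.15e-09 and 2.26e-09). Gja4 averaged 7.47 ± 0.99 CPM in PNS P14 and 15.0 ± 1.2 in PNS P1, and 7.05 ± 1.59 in Ctrl P14 and 13.1 ± 1.3 in Ctrl P1. It fell by 1.01 ± 0.14 in PNS and 0.88 ± 0.14 in Ctrl (edgeR adjusted p = 5.17e-06 and 2.25e-05), and neither pair of groups overlapped. Non-overlap of this kind was found for 63.7% of all tested genes in PNS and 66.7% in Ctrl. Of 12 endothelial genes, 3 were called higher and 8 lower in PNS (median of -0.41), and 3 higher and 6 lower in Ctrl (median of -0.22). Of 7 arterial endothelial genes, 2 were called higher and 3 lower in PNS (median of -0.41) and likewise 2 and 3 in Ctrl (median of 0.04). Of 12 mural genes, 1 was called higher and 5 lower in PNS (median of -0.32), and 1 higher and 1 lower in Ctrl (median of -0.21). The part of these lists in the fall of Gja4 and Gjc1 was not tested.

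Gjb2 and Gjd2 were not called in either condition. Gjb2 averaged 12.6 ± 3.6 CPM in PNS P14 and 18.2 ± 6.7 in PNS P1 (log2 difference of -0.54 ± 0.25, edgeR adjusted p = 0.0594). In Ctrl it averaged 13.5 ± 1.8 at P14 and 9.11 ± 2.09 at P1 (0.56 ± 0.25, adjusted p = 0.0544). In PNS it was called without P1 replicate 4 (-0.74, edgeR adjusted p = 0.00534, where 70.5% of genes were called) or without P14 replicate 4 (-0.74, adjusted p = 0.0158). In Ctrl it was called without P1 replicate 4 (0.68, adjusted p = 0.0348), without P14 replicate 1 (0.65, adjusted p = 0.0418) and in the 8 Ctrl libraries alone (adjusted p = 0.00720). In Ctrl it was also called by limma (adjusted p = 0.0459) and by DESeq2 (adjusted p = 0.0316, where 67.1% of genes were called). Without both PNS P1 replicates 2 and 3, Gjb2 stood at -0.04 in PNS (edgeR adjusted p = 0.905). The sign was thus opposite in PNS and Ctrl, and the test of that difference is given with the stress effects. The neuronal Gjd2 averaged 18.9 ± 2.1 in PNS P14 and 18.9 ± 1.8 in PNS P1, and 18.2 ± 1.8 in Ctrl P14 and 17.5 ± 1.9 in Ctrl P1, with log2 differences of 0.01 ± 0.10 and 0.05 ± 0.10 (edgeR adjusted p = 0.955 and 0.644). Its direction depends on the scaling. With total reads in place of TMM the median of all genes moved from -0.07 to -0.34 in PNS and from -0.04 to -0.25 in Ctrl, and Gjd2 stood at -0.27 (adjusted p = 0.0232) and -0.16 (adjusted p = 0.169). Under that scaling, Gja1 in PNS stood at 0.10 (adjusted p = 0.603) and Gjb2 in PNS at -0.83 (adjusted p = 0.00477). The calls of Gjb6, Gja4 and Gjc1 were kept.

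**Figure D2:**
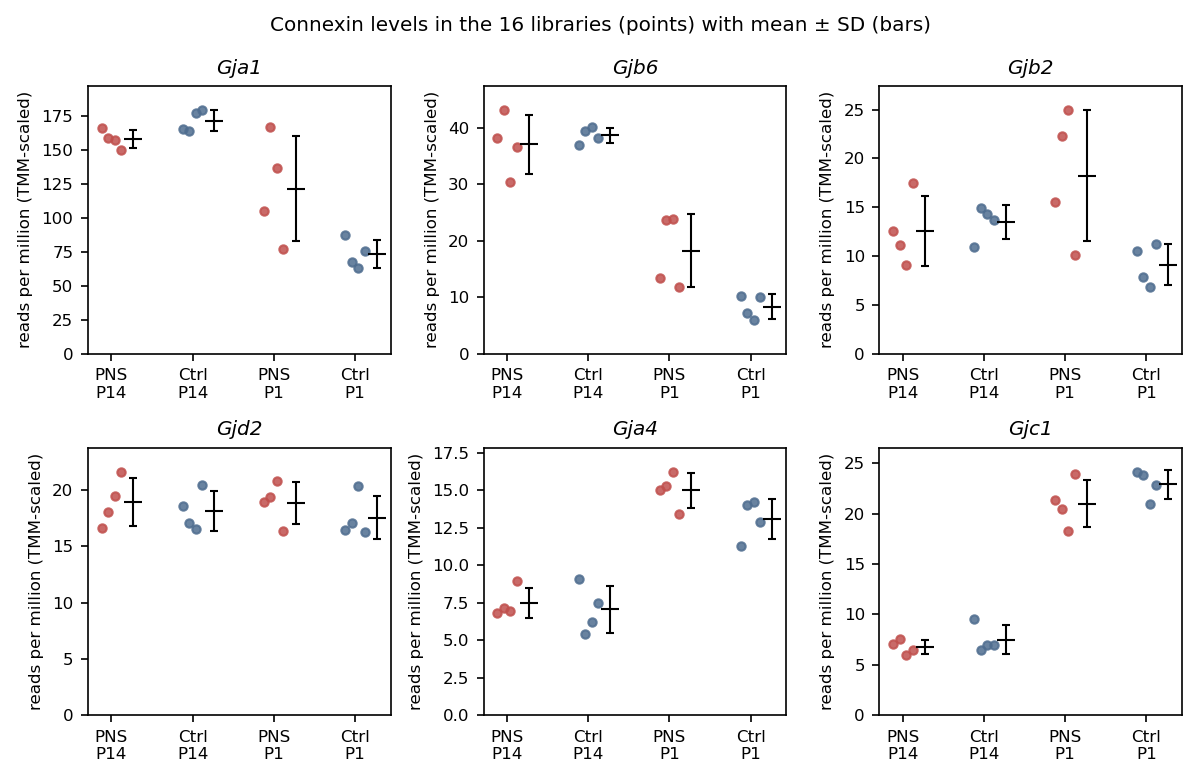
Levels of the 6 connexins in CPM (reads per M, TMM-scaled), with 1 point per library and the mean ± SD (n = 4) beside each group. Gjb6 is higher and Gja4 and Gjc1 are lower in each P14 library than in each P1 library, and the PNS P1 points of Gja1, Gjb6 and Gjb2 spread more widely than the Ctrl P1 points.

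Astrocyte and meningeal markers moved with age in opposite directions. Of 18 astrocyte genes, 15 were called higher at P14 in PNS and 16 in Ctrl, and 0 lower. Their medians were 1.66 and 1.84 on the log2 scale, against -0.07 and -0.04 over all genes. The glutamate transporter Slc1a2 differed by 4.02 in PNS and 3.82 in Ctrl, and the glutamine synthetase Glul by 1.57 and 1.74. Of 13 meningeal fibroblast genes, 12 were called lower at P14 in PNS and 12 in Ctrl, and 0 higher, with medians of -1.96 and -1.19. Their part in the connexin differences was not tested.

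The proportions among the 3 connexins shared by astrocytes and meninges differed between the ages. The ratio of Gjb2 to Gjb6, per transcript length, was 0.287, 0.226, 0.259 and 0.418 in PNS P14, against 1.02, 0.821, 0.911 and 0.741 in PNS P1. In Ctrl it was 0.259, 0.332, 0.312 and 0.313 at P14, against 0.898, 0.957, 1.02 and 0.981 at P1. Gjb6 was the higher of the 2 in all 8 P14 libraries, while the P1 ratios lay nearer to 1, averaging 1.11 ± 0.15 in PNS P1 and 1.23 ± 0.07 in Ctrl P1 over exon unions, against 0.378 ± 0.106 in PNS P14 and 0.386 ± 0.040 in Ctrl P14. The ratio of Gjb6 to Gja1 averaged 0.355 ± 0.049 in PNS P14 and 0.226 ± 0.031 in PNS P1, and 0.342 ± 0.017 in Ctrl P14 and 0.170 ± 0.026 in Ctrl P1. The ratio of the neuronal Gjd2 to Gjc1 averaged 2.28 ± 0.44 in PNS P14 and 0.735 ± 0.150 in PNS P1, and 1.99 ± 0.33 in Ctrl P14 and 0.620 ± 0.110 in Ctrl P1 (SD, n = 4 each). Over exon unions the ratio of Gjd2 to Gjc1 averaged 4.94 in PNS P14 and 1.59 in PNS P1, and 4.30 in Ctrl P14 and 1.34 in Ctrl P1, so whether Gjd2 or Gjc1 was higher at P1 depends on the length. Gjb6 over Gja1 then averaged 0.901 in PNS P14 and 0.574 in PNS P1, and 0.867 in Ctrl P14 and 0.431 in Ctrl P1. A change of length multiplies every library alike, so the order of the libraries in each ratio stays the same. These ratios are descriptions, with no test.

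**Figure D3:**
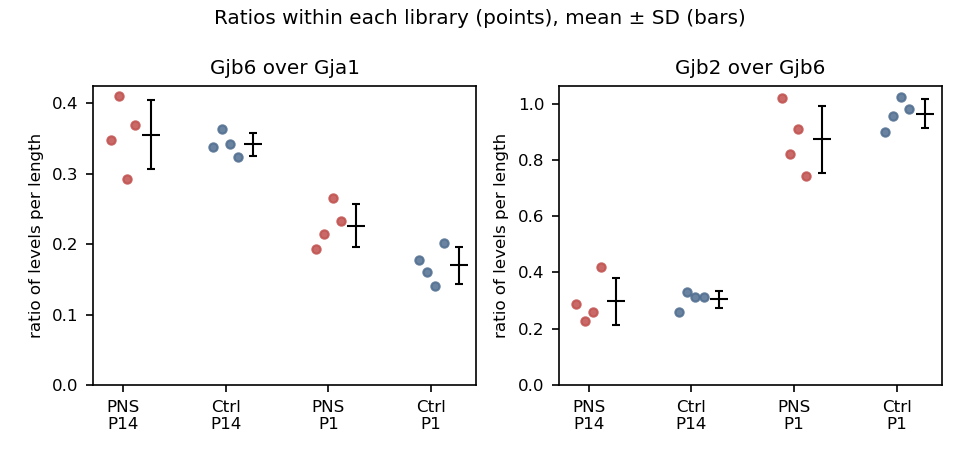
Ratios of connexin levels per transcript length within each library, Gjb6 over Gja1 and Gjb2 over Gjb6, with 1 point per library and the mean ± SD (n = 4) beside each group. Gjb2 over Gjb6 lies at 0.226 to 0.418 in the P14 libraries and at 0.741 to 1.02 in the P1 libraries.

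The comparison of PNS with Ctrl at P1 asked what stress before birth left in the newborn cortex. Gjb6, Gjb2 and Gja1 were the connexins with the largest differences, each higher on average in PNS, but 0 of the 6 passed the test across all genes. The limma fit called 0 of 16711 genes (0%), with 1115 at an unadjusted p below 0.05. Here edgeR called 0 genes and DESeq2 79 (0.400% of all 19748 genes measured). Among the 6 connexins 3 had an unadjusted p below 0.05, against 6.67% of all genes, and their median log2 difference was 0.43, against -0.02.

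Gjb6 had 680, 1208, 1190 and 597 normalized counts in PNS P1 replicates 1 to 4, against 520, 364, 296 and 513 in Ctrl P1. Every PNS library was above every Ctrl library, which was so for 1.69% of genes, and Gjb6 was the 1 connexin of 6 whose groups did not overlap, against 3.23% of genes in either direction. Replicates 2 and 3 were far above the other 2. The log2 difference was 1.08 ± 0.26 (SE, limma adjusted p = 0.669). Gjb2 had 792, 1134, 1240 and 506 in PNS P1, against 533, 398, 346 and 575 in Ctrl P1. Replicates 1 to 3 were above all Ctrl libraries, which was so for 7.43% of genes, and replicate 4 lay within them. The log2 difference was 0.93 ± 0.27 (limma adjusted p = 0.669). Gja1 had 5344, 8505, 6782 and 3887 in PNS P1, against 4416, 3427, 3204 and 3860 in Ctrl P1, with the same pattern across replicates. It differed by 0.67 ± 0.21 (limma adjusted p = 0.669). The spread in PNS was 2.93, 3.08 and 3.70 times that in Ctrl for Gjb6, Gjb2 and Gja1 (ratio of SDs).

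The connexins of neurons and vessels differed less. Gja4 had 765, 779, 807 and 676 normalized counts in PNS P1, against 571, 712, 718 and 661 in Ctrl P1, a log2 difference of 0.19 ± 0.10 (limma adjusted p = 0.763). Its PNS replicates 1 to 3 were above all Ctrl libraries, which was so for 7.43% of genes. Gjd2 averaged 952 ± 90 in PNS P1 and 892 ± 94 in Ctrl P1, a difference of 0.10 ± 0.10 (adjusted p = 0.855). Gjc1 averaged 1060 ± 122 in PNS P1 and 1166 ± 75 in Ctrl P1, a difference of -0.14 ± 0.09 (adjusted p = 0.794). All 3 overlapped between the groups. Gjd2 in Ctrl P1 replicate 3 had 1031, apart from 834 to 867 in the other 3 Ctrl libraries.

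The result for Gjb6, Gjb2 and Gja1 depended on the test and on single libraries. DESeq2 on recovered reads called Gjb6 (log2 difference of 1.12, adjusted p = 0.00748) and Gjb2 (0.99, adjusted p = 0.0311), with Gja1 at 0.72 (adjusted p = 0.0598). Without PNS replicate 4, limma called Gjb2 (1.19, adjusted p = 0.0372) and Gja1 (0.87, adjusted p = 0.0431) and not Gjb6 (1.27, adjusted p = 0.0600), among 120 genes called (0.718%). Without both PNS replicates 2 and 3, a choice made after the values were seen, the differences were 0.63 for Gjb6, 0.48 for Gjb2 and 0.30 for Gja1 (limma adjusted p = 0.9997 each).

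Marker genes of adjacent tissues moved with these 3 connexins at P1. All 13 meningeal fibroblast genes had a positive difference, against 44.5% of all genes, with a median of 0.56 on the log2 scale and 0 called. The retinoic acid synthase Aldh1a2 stood at 0.61, the transporter Slc6a13 at 0.73 and the collagen Col3a1 at 0.52. All 6 olfactory bulb genes were positive, with a median of 2.50 and 0 called. The 18 astrocyte genes had a median of 0.05, with 10 positive and 8 negative, and 0 called. Across the 8 P1 libraries, the meningeal score (the mean log2 deviation of the 13 genes) had a Pearson r of 0.989 with Gjb6, 0.981 with Gjb2 and 0.950 with Gja1. Spearman's rho was 0.952, 0.929 and 0.905, and r without the 2 libraries farthest from the median of the connexin was 0.989, 0.947 and 0.867. By exact permutation the adjusted p of r over 66 relations was 0.00327, 0.00327 and 0.00430, and that of rho was 0.0376, 0.0491 and 0.0502. No correlation was computed within a group of 4 libraries. Here and below, the permutations ran across PNS and Ctrl, so their p-values also take in any difference between the groups. With the astrocyte score r was 0.263 for Gjb6, 0.385 for Gjb2 and 0.420 for Gja1 (exact permutation, adjusted p = 0.682, 0.534 and 0.503), and rho was 0.381, 0.381 and 0.405 (adjusted p = 0.579 each).

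The same 3 connexins also followed the olfactory bulb score and each other. For that score r was 0.850 with Gjb6, 0.899 with Gjb2 and 0.945 with Gja1 (exact permutation, adjusted p = 0.0324, 0.0277 and 0.00430), and 0.559, 0.728 and 0.882 without the 2 farthest libraries. Spearman's rho was 0.786, 0.667 and 0.833 (adjusted p = 0.154, 0.305 and 0.0923). Among themselves r was 0.977 for Gjb2 and Gjb6, 0.958 for Gja1 and Gjb2 and 0.952 for Gja1 and Gjb6 (exact permutation, adjusted p = 0.00430 each), and 0.922, 0.945 and 0.870 without the 2 farthest libraries. Spearman's rho was 0.881, 0.905 and 0.976 for these pairs (adjusted p = 0.0597, 0.0502 and 0.0262). Gjc1 and the neuronal Gjd2 ran against each other at P1, with an r of -0.891 and a rho of -0.857 (exact permutation, adjusted p = 0.0167 and 0.0707), and an r of -0.945 without the 2 farthest libraries. When the meningeal score was added to the limma fit, the PNS differences were 0.19 ± 0.12 for Gjb6, 0.03 ± 0.15 for Gjb2 and 0.02 ± 0.16 for Gja1 (SE, adjusted p of 0.899 to 0.989). With the olfactory bulb score they were 0.55 ± 0.28, 0.29 ± 0.24 and 0.12 ± 0.14 (adjusted p = 0.99997 each). The meningeal scores of PNS P1 (-0.09 to 0.64) all lay above those of Ctrl P1 (-0.51 to -0.10), so score and group cannot be told apart. Only the astrocyte, meningeal and olfactory bulb scores were correlated with the connexins. In PNS P1 replicates 1 to 4 the endothelial score was 0.06, 0.17, 0.28 and -0.07, against -0.34 to -0.03 in Ctrl P1. The mural score was 0.02, 0.11, 0.43 and -0.01, against -0.25 to -0.005. The myelin score was 0.46, 0.61, 0.43 and -0.34, against -0.41 to -0.04. Whether the link is particular to meninges and olfactory bulb was not tested.

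**Figure D4:**
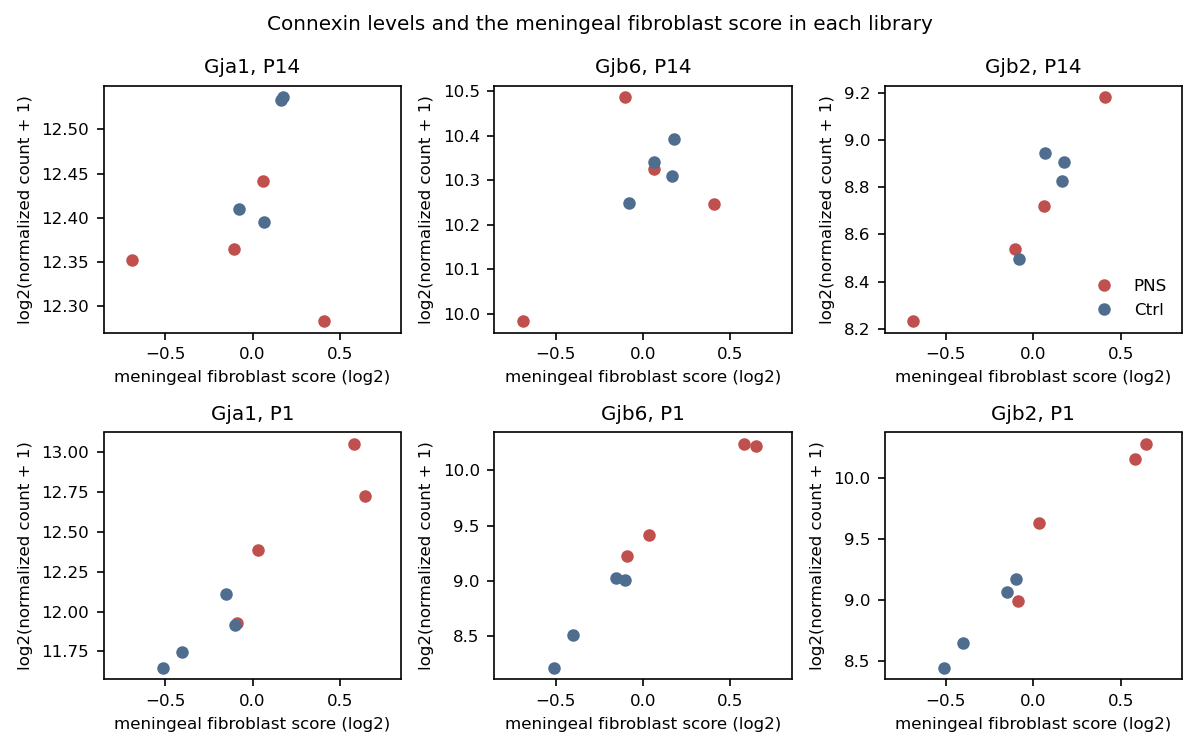
Level of Gja1, Gjb6 and Gjb2, as log2(normalized count + 1), against the meningeal fibroblast score on the log2 scale, at P14 (top) and P1 (bottom), with 1 point per library. At P1 the points rise together for all 3 genes (r of 0.950 to 0.989), with PNS replicates 2 and 3 at the upper right, and at P14 this is seen for Gjb2 (r of 0.927).

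The other marker lists at P1 had 0 genes called each, and are given by their median log2 difference. Counts of positive genes stand beside 44.5% positive over all genes. The endothelial list (12 of 12 genes positive) stood at 0.21, the arterial endothelial list (7 of 7) at 0.29, the mural list (9 of 12) at 0.27 and the myelin list (7 of 10) at 0.13. Interneuron genes (10 of 11) stood at 0.16, projection neuron genes (2 of 8) at -0.16, progenitor genes (6 of 12) at -0.03 and microglia genes (7 of 10) at 0.04. The tested choroid plexus genes (4 of 5) stood at 0.42 and the tested ependymal genes (3 of 3) at 0.45, and up to 2 ependymal markers were at 0 in a library.

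At P14 the comparison of PNS with Ctrl gave small differences for the same genes, and 0 of the 6 connexins were called. The limma fit called 0 of 15873 genes (0%), with 479 (3.02%) at an unadjusted p below 0.05, of which 0 were connexins. By the other tools, edgeR called 0 genes and DESeq2 5 (0.0263% of all 19014 genes measured). Gja1 had 5564, 5273, 5228 and 4981 normalized counts in PNS P14, against 5441, 5386, 5940 and 5926 in Ctrl P14. Its groups overlapped, and the log2 difference was -0.11 ± 0.06 (SE, limma adjusted p = 0.988). Gjb6 had 1282, 1433, 1011 and 1214 in PNS P14, against 1216, 1296, 1343 and 1267 in Ctrl P14, and differed by -0.06 ± 0.10. The PNS libraries lay on both sides of the Ctrl ones.

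Gjb2 had 421, 371, 300 and 580 in PNS P14, against 360, 491, 479 and 454 in Ctrl P14, a difference of -0.12 ± 0.18. PNS replicates 3 and 4 were its lowest and highest libraries, and the same 2 had the lowest and highest meningeal scores (-0.69 and 0.41). The same 2 also had the lowest and highest endothelial scores (-0.20 and 0.32) and mural scores (-0.21 and 0.26). Replicate 4 had the highest astrocyte score (0.15) and the lowest myelin score (-1.41). Whether the link of Gjb2 at P14 is particular to meninges was not tested. Across the 8 P14 libraries r between Gjb2 and the meningeal score was 0.927, rho was 0.905, and r was 0.866 without the 2 farthest libraries (exact permutation, adjusted p = 0.00430 for r and 0.0502 for rho). For Gjb6 and Gja1, r with the meningeal score was 0.614 and 0.181 at P14 (exact permutation, adjusted p = 0.342 and 0.764), and rho was 0.0714 and 0.262 (adjusted p = 0.954 and 0.738). With the astrocyte score r was 0.726 for Gjb2, 0.155 for Gjb6 and -0.380 for Gja1 (exact permutation, adjusted p = 0.181, 0.764 and 0.562). There, rho was 0.690, 0.310 and -0.167 (adjusted p = 0.269, 0.693 and 0.860), and r for Gjb2 was 0.381 without the 2 farthest libraries. Gjb2 and Gjb6 had an r of 0.441 and a rho of 0.214 (exact permutation, adjusted p = 0.494 and 0.786). All 13 meningeal genes had a negative difference at P14 (median of -0.16), where 50.6% of all genes were positive, and 0 were called. With their score as a covariate in limma, the PNS difference was 0.02 ± 0.10 for Gjb2, -0.02 ± 0.09 for Gjb6 and -0.11 ± 0.06 for Gja1 (SE, adjusted p = 0.973, 0.966 and 0.753). The differences of Gjd2 (0.07 ± 0.10), Gja4 (0.11 ± 0.16) and Gjc1 (-0.13 ± 0.14) were likewise not called (limma adjusted p = 0.988 for all 6), and their groups overlapped. Gja4 in PNS P14 replicate 4 had 296 normalized counts, apart from 228 to 238 in the other 3 PNS libraries. The groups of 0 of the 6 connexins stood apart at P14, against 2.12% of genes.

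The other marker lists at P14 also had 0 genes called each between PNS and Ctrl, where 50.6% of all genes were positive. Myelin genes (1 of 12 positive) had a median log2 difference of -0.42, with sums of 15676 to 56792 normalized counts in PNS P14 and 20482 to 60039 in Ctrl P14, and olfactory bulb genes (1 of 5) had a median of -0.50. With the myelin score as a covariate, Gjb2 stood at -0.24 ± 0.12 (SE, limma adjusted p = 0.9999). The medians of the astrocyte (10 of 18 positive), endothelial (11 of 12), arterial endothelial (5 of 7) and mural (9 of 12) lists were 0.03, 0.08, 0.02 and 0.04. Those of the interneuron (3 of 12), projection neuron (6 of 8), progenitor (4 of 12) and microglia (7 of 10) lists were -0.10, 0.08, -0.03 and 0.04. The choroid plexus (1 of 3) and ependymal (2 of 2) lists stood at -0.13 and 0.05.

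The difference between the ages in the PNS effect was tested in 1 limma fit of all 16 libraries, and 0 of the 6 connexins were called among 16418 genes, of which 0 were called (0%). An unadjusted p below 0.05 was found for 3 connexins and for 973 genes (5.93%). By the other tools, edgeR called 0 genes, and DESeq2 called 11 (0.0602% of the 18268 genes measured at both ages), of which 0 were connexins. The P14 effect minus the P1 effect was -1.15 ± 0.30 for Gjb6, -0.78 ± 0.23 for Gja1 and -1.06 ± 0.36 for Gjb2 (SE, limma adjusted p = 0.716, 0.716 and 0.777). It was -0.03 ± 0.14 for Gjd2, -0.08 ± 0.19 for Gja4 and 0.02 ± 0.17 for Gjc1 (adjusted p = 0.981, 0.956 and 0.993). This test also compares the age difference in PNS with that in Ctrl, so the opposite signs of Gjb2 and the smaller rises of Gjb6 and Gja1 in PNS were not shown to differ from Ctrl. Without PNS P1 replicate 4, Gja1 (-0.98, adjusted p = 0.0219) and Gjb6 (-1.33, adjusted p = 0.0483) were called, among 74 genes (0.451%). Without both PNS P1 replicates 2 and 3, the difference was -0.69 for Gjb6, -0.41 for Gja1 and -0.61 for Gjb2 (limma adjusted p = 0.994 each).

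**Figure D5:**
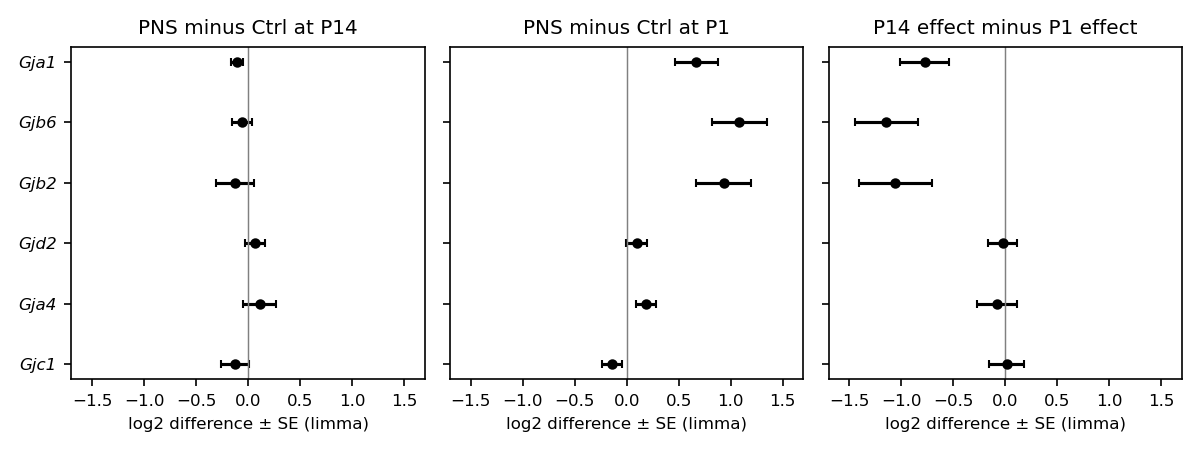
Differences between PNS and Ctrl for the 6 connexins on the log2 scale with SE from limma, at P14, at P1, and as the P14 effect minus the P1 effect. At P14 all 6 lie between -0.13 and 0.11, and at P1 Gja1, Gjb6 and Gjb2 lie at 0.67, 1.08 and 0.93.

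Genes whose levels were most like each connexin over the 8 libraries of an age were ranked by Pearson r on log2(normalized count + 1), among genes with a mean of at least 50, leaving out Gm and Rik gene models. They are descriptions, since the highest of 13153 genes at P1 or 12623 at P14 were picked and the libraries share their depth and tissue makeup. At P1, Gjb6 was closest to Foxc1, a transcription factor of the meninges and other mesenchyme (r of 0.995), Itih2 (0.993) and A4galt (0.993). Foxc1 is itself in the meningeal fibroblast list, so its r is not separate from that of the meningeal score. Gjb2 was closest to Lama4, a laminin chain of vessel basement membranes (0.994), Ifitm2 (0.991) and Ppp1r3b (0.991). Gja1 was closest to St5 (0.994), the Wnt inhibitor Apcdd1 (0.992) and the homeobox gene Alx4 (0.992). All of these kept an r of at least 0.981 without the 2 farthest libraries.

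Other genes stood closest to the remaining connexins at P1. Gjd2 was closest to Nrsn2 (r of 0.982), B3gnt9 (0.982) and Nhs (0.980), Gja4 to Pggt1b (0.980) and Slc19a2 (0.967), and Gjc1 to the elongation factor Eef1a1 (0.985), Nif3l1 (0.980) and Ruvbl1 (0.979). At P14 other genes ranked highest. They were Igfbp3 (0.964), Slc26a7 (0.951) and Lin9 (0.945) for Gja1, Mical2 (0.960), Uck2 (0.957) and Lrtm2 (0.943) for Gjb6, and Unc5d (0.978), Lrrk1 (0.966) and Ephx1 (0.960) for Gjb2. They were Maf (0.974) and Ube2d2a (0.974) for Gjd2, Osbpl7 (0.970), Prkd2 (0.968) and Bmyc (0.965) for Gja4, and Tada2b (0.966), Bcl2l11 (0.959) and Tsc22d2 (0.955) for Gjc1. For Gjc1 the r of Tada2b and Bcl2l11 was 0.749 and 0.724 without the 2 farthest libraries.

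Of 14 other connexin genes, 6 were tested for age. In PNS 3 were called higher and 1 lower at P14, and in Ctrl 4 higher and 1 lower, where 72.3% of all genes were called in PNS and 71.2% in Ctrl. Gjc3, a connexin of oligodendrocytes, rose by 2.60 on the log2 scale in PNS and by 3.86 in Ctrl (edgeR adjusted p = 3.51e-06 and 8.16e-08). Gja5, which encodes Cx40 of arterial endothelium, fell by 1.27 in PNS and 0.95 in Ctrl (edgeR adjusted p = 9.26e-06 and 0.000193). The arterial Gja4 fell too, but Gja5 is itself in the arterial endothelial list, which was split. Of the 7 genes of that list, 2 were called higher and 3 lower in each condition. Between PNS and Ctrl 0 of the 6 tested other connexins were called at P1, where 6 of 6 were positive (median of 0.46). At P14 also 0 were called, and 3 were positive and 3 negative (median of 0.07). Over all genes 44.5% were positive at P1 and 50.6% at P14. Gjc3 had 53.7, 106, 89.4 and 20.6 normalized counts in PNS P1, against 32.8, 33.4, 36.4 and 25.4 in Ctrl P1. The same PNS replicates 1 to 3 were above all Ctrl libraries as for Gja1, Gjb2 and Gja4, which was so for 7.43% of genes. The difference of Gjc3 was 0.83 ± 0.44 (limma adjusted p = 0.772).

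Pannexins form related channels that open to the outside of the cell, and the 2 tested ones moved in opposite directions with age. Panx1 was lower at P14, with log2 differences of -1.99 in PNS and -2.005 in Ctrl, and Panx2 rose by 2.28 in PNS and 2.14 in Ctrl (edgeR adjusted p = 1.08e-12 and 9.41e-13 for Panx1, 6.5e-12 and 1.37e-11 for Panx2). Between PNS and Ctrl they differed by -0.04 and -0.04 at P1 and by -0.01 and 0.12 at P14, and 0 were called. Of 14 tested partners of gap junctions, which anchor, transport or turn over the channels, 4 were called higher and 7 lower at P14 in PNS, and 6 higher and 8 lower in Ctrl, beside the same shares over all genes. Nov rose by 3.05 and 3.25 and Hepacam, an adhesion molecule of astrocytes, by 1.52 and 1.45, in PNS and in Ctrl. The actin-binding Dbn1 was lower at P14, at -1.101 in PNS and -1.272 in Ctrl, and so was N-cadherin (Cdh2), at -1.24 in PNS and -1.42 in Ctrl. Between PNS and Ctrl 0 partners were called at either age, with medians of -0.03 at P1 and 0.03 at P14.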

How the data were processed

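RNA of dissected medial prefrontal cortex was isolated on RNeasy micro columns and sequenced from poly(A) libraries, per the labels' protocols. Per the submitters' processing notes, cutadapt, STAR 2.7.3a, HTSeq and DESeq2 were used with build GRCm38. Strand, annotation release and any gene filter were not stated. The deposited signal values are the authors' normalized counts, with a separate normalization for each age and 2 decimals. Whole reads were recovered by dividing by the value of 1 read, and at least 99.97% of values in each library were whole within 0.0051 normalized counts.

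Within an age, PNS and Ctrl were compared by limma 3.58.1 with a mean-variance trend in R 4.3.3, on log2(value + 1), which understates changes of low genes. Genes averaging 10 or more were tested, and p-values were adjusted by Benjamini-Hochberg over all of them, with a threshold of 0.05. The ages were compared on recovered reads with edgeR 4.0.16 (quasi-likelihood, TMM, filterByExpr). As alternatives, edgeR and DESeq2 1.42.0 ran on recovered reads within each age, where edgeR called 0 genes at P1 and 0 at P14, and DESeq2 called 79 and 5. Other pseudocounts, filters, scalings and covariates, a replicate block and fits without single libraries were also run. Scaled reads use TMM library sizes, and levels per length use the longest protein-coding transcript of GENCODE, or, as an alternative, the union of its exons. The scripts were tested on simulated data.

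The 6 genes are described whatever their values. From each of 16 lists (3 of related channels and partners, 13 of cell type markers), up to 4 genes with the smallest p could be named, as could the 3 genes most like each connexin at each age. Some genes that this rule names are not reported here. The connexins and the lists were chosen with earlier results of these data known.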

Additional observations from a re-analysis of the deposited data

Results flagged for a closer look

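Among 24 groups of 4 libraries tested for a library far from the other 3, 2 had one, and chance flags about 1 in 20 groups. Gja4 in PNS P14 replicate 4 had 296 normalized counts, against 228 to 238 in the other 3 libraries of the group. Gjd2 in Ctrl P1 replicate 3 had 1031, against 834 to 867 in the other 3.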

How the results depend on the processing

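Over 534 member values under other settings, 482 kept their direction and their side of the threshold, 14 gained a call in the same direction, 8 lost one and 30 changed sign, of which 1 (Gjd2 with age in PNS under total reads) also gained a call. DESeq2 called 2 connexins between PNS and Ctrl at P1 where limma called 0, and it called 79, 5 and 11 genes at P1, at P14 and for the difference of effects, against 0, 0 and 0. The fit of all 16 libraries and the olfactory bulb covariate each called 1 gene at P1. Without single libraries, the connexins called ranged from 0 to 2 at P1, from 0 to 0 at P14, from 0 to 2 for the difference, from 3 to 4 with age in PNS, where 68.9% to 71.4% of all genes were called, and from 4 to 5 with age in Ctrl, where 67.7% to 68.7% were. The cause of these changes was not tested.

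At P1, Gjd2 stood at -0.0390 with the olfactory bulb covariate and Gjc1 at 0.000282 with the meningeal one, and at P14 Gjb2 stood at 0.0163 with the meningeal one. Without both PNS P1 replicates 2 and 3, the difference of effects was 0.0636 for Gjd2 and -0.10 for Gjc1, and for Gjc1 it was -0.0337 in edgeR and -0.0109 in DESeq2. With total reads, Gjd2 stood at -0.27 with age in PNS and -0.16 in Ctrl. Without single libraries, the P14 differences ranged from -0.137 to 0.0303 for Gjb6, from -0.296 to 0.0207 for Gjb2 and from -0.00800 to 0.24 for Gja4. The difference of effects ranged from -0.0985 to 0.0314 for Gjd2, from -0.196 to 0.0486 for Gja4 and from -0.0565 to 0.135 for Gjc1. With age, Gjd2 ranged from -0.0608 to 0.0643 in PNS and from -0.00715 to 0.13 in Ctrl.

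The replicate numbers are not stated to pair libraries. Correlations of same-numbered deviations between PNS and Ctrl were 0.09, -0.15, 0.13 and 0.21 at P1 and -0.13 to 0.03 at P14. Differently numbered libraries were not compared, so these values cannot decide whether libraries were paired. The replicate block called 0 connexins and 0 genes at P1, at P14 and for the difference, and 4 connexins in each age comparison, where 69.4% of genes were called in PNS and 68.0% in Ctrl.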
